A study of Macaca fascicularis with 7 samples.

Results

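Genes of the cumulus and granulosa cells that surround an oocyte, 10 in all, were followed in libraries made from the oocytes of cynomolgus monkeys (Macaca fascicularis). They were SERPINE2, HAS2, TNFAIP6, PTX3, FSHR, LHCGR, CYP19A1, PTGS2, AMH and STAR, 10 of the 28161 usable gene rows of the count table. A row was taken where its name equals the gene symbol, which found 9 of the genes. CYP19A1 was found under its locus identifier, LOC102117886, which a RefSeq gene table pairs with that symbol. The 7 libraries came from wild-type animals and fall into 3 groups. Germinal vesicle (GV) oocytes, immature and labelled as control, gave 2 libraries. Metaphase II (MII) oocytes that matured in the animal (in vivo, IVO), also labelled as control, gave 2 libraries, and MII oocytes that matured in culture (in vitro, IVM), labelled as treated, gave 3. The labels do not give the age of the animals, the number of oocytes in a library, how cumulus cells were removed or whether each library had its own animal. A p-value here therefore measures no more than the spread among these libraries, and that spread may be technical.

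As background, granulosa cells line the follicle, and those next to the oocyte, the cumulus cells, stay in contact with it through fine projections that cross the zona pellucida. Follicle-stimulating hormone and luteinizing hormone act on the granulosa cells, and around ovulation the cumulus cells lay down a hyaluronan matrix and spread apart, which is called cumulus expansion. HAS2, TNFAIP6, PTX3 and PTGS2 take part in that expansion, FSHR and LHCGR are the receptors of the 2 hormones, and CYP19A1, STAR and AMH serve steroid and hormone production.

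Levels are CPM, counts brought to one fixed library size, with sizes adjusted by the TMM method so that the typical gene has a like level in each library. A value after ± is the SD over a group's libraries (GV n = 2, IVO MII n = 2, IVM MII n = 3) unless SE is written. Library totals ran from 22901970 to 29245733 counts. The TMM factors were 1.38 and 1.42 in the GV libraries and 0.766 to 0.985 in the MII libraries, so scaling moves GV levels down against MII levels. A count of 0 allows up to 3 counts, which is 0.0907 to 0.161 CPM in a library, and such limits cover counting error only. The GV libraries lie in another data folder than the 5 MII libraries, per the labels. Wherever MII oocytes are compared with GV, that folder and the GV stage cannot be told apart. The markers of the labelled cell type were present in all 7 libraries: each of the 13 oocyte markers was at 4.03 CPM or more in each library, GDF9 and ZP2 were the highest, and the summed level was 8794 to 18084 CPM.

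The 10 genes split sharply by level. PTX3, PTGS2 and AMH had 0 counts in all 7 libraries, LHCGR and STAR had single-digit counts in the GV libraries and 0 counts elsewhere, and CYP19A1 had counts in 4 libraries. SERPINE2, HAS2, TNFAIP6 and FSHR had counts in all 7. As a background, 2583 of the 17629 rows with a symbol (14.7%) had 0 counts in all libraries, and 12970 of all 28161 rows (46.1%) had counts in all 7. Of the 10 genes, 5 (SERPINE2, HAS2, TNFAIP6, FSHR and CYP19A1) passed the filter on low counts and were tested. On the scale of CPM per kilobase of gene length, which allows levels of different genes to be compared, SERPINE2 was the highest of the 10 and TNFAIP6 came next in each group by mean. The libraries of these 2 genes overlapped in IVM MII oocytes (68.5 to 187 against 38.5 to 103 CPM per kilobase) but not in the other groups. Below them the order of the means was HAS2 and then FSHR in GV and IVO MII oocytes (HAS2 at 1.46 ± 0.643 and 9.38 ± 0.150, FSHR at 0.276 ± 0.140 and 0.792 ± 0.324), but FSHR and then HAS2 in IVM MII oocytes, at 5.99 ± 2.78 and 3.43 ± 1.19. In IVM MII oocytes the libraries of the 2 neighbours overlapped, with FSHR at 3.72 to 9.09 and HAS2 at 2.34 to 4.69 CPM per kilobase. In IVO MII oocytes CYP19A1 came last, at 0.708 ± 0.778 CPM per kilobase, and its 2 libraries overlapped with those of FSHR.

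**Figure D1:**
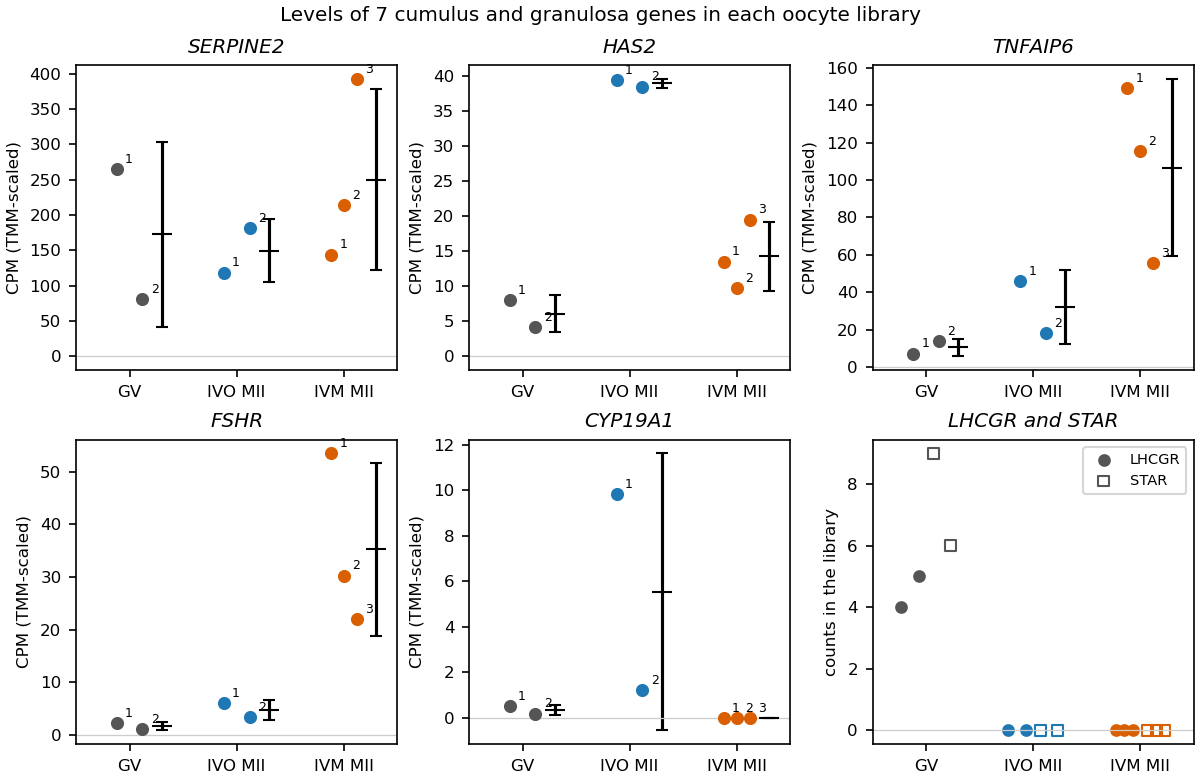
Level of each detected gene in each of the 7 libraries, as TMM-scaled CPM on a linear axis (counts for LHCGR and STAR), with one point per library numbered by replicate. Horizontal ticks and bars give the mean and SD of GV (n = 2), IVO MII (n = 2) and IVM MII (n = 3) libraries. HAS2 is highest in the 2 IVO MII libraries, at 39.4 and 38.6 CPM, whereas TNFAIP6 and FSHR are highest in the 3 IVM MII libraries.

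HAS2 makes hyaluronan, the polymer on which the expanded cumulus matrix is built. The gene lies at chr8:122942181-122970761 on the minus strand of the deposited table's build, which is not named in the sources used here, with 4 exon blocks and 4159 bases. Its level was 7.95 and 4.17 CPM in the GV libraries, 39.4 and 38.6 CPM in the IVO MII libraries, and 13.5, 9.72 and 19.5 CPM in the IVM MII libraries. No 2 of the 3 groups overlapped: every IVO MII library was above every IVM MII library, and every IVM MII library was above both GV libraries. The IVO MII libraries lay close together, with a mean of 39.0 ± 0.625 CPM, against 6.06 ± 2.67 CPM in GV and 14.3 ± 4.94 CPM in IVM MII oocytes. HAS2 rose from GV to IVO MII oocytes by 2.68 ± 0.53 (log2, SE), a 6.43-fold difference, with an edgeR adjusted p of 0.00750. The difference between IVM MII and GV oocytes was 1.23 ± 0.48 (log2, SE; edgeR adjusted p = 0.0715), and that between IVM MII and IVO MII oocytes was -1.45 ± 0.45 (edgeR adjusted p = 0.122), and neither passed the threshold of 0.05. The rise from GV to IVO MII was lost without GV replicate 2 (edgeR adjusted p = 0.0803, with 1.57e-05 to 0.0803 over 16 alternatives). With library totals that were not scaled by TMM, HAS2 stood at 11.3 and 5.76 CPM in GV oocytes and 10.4, 8.64 and 17.7 CPM in IVM MII oocytes, so the non-overlap of those 2 groups rests on the scaling. In these libraries, whose number of oocytes is not given, fewer cells of a type and less RNA per cell cannot be told apart.

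TNFAIP6 encodes TSG-6, a protein that links the heavy chains of inter-alpha-inhibitor to hyaluronan and so stabilises the matrix. It lies at chr12:40013287-40034161 on the plus strand, with 6 exon blocks and 1442 bases. Its level was 7.20 and 13.8 CPM in the GV libraries, 46.1 and 18.2 CPM in the IVO MII libraries, and 149, 115 and 55.6 CPM in the IVM MII libraries. All 3 IVM MII libraries were above both IVO MII libraries, and both IVO MII libraries were above both GV libraries. TNFAIP6 was 3.34 ± 0.64 (log2, SE) higher in IVM MII than in GV oocytes, a 10.1-fold rise from 10.5 ± 4.68 to 107 ± 47.3 CPM, with an edgeR adjusted p of 0.00489. That call held in 15 of 15 alternatives, with adjusted p up to 0.0494. The IVO MII level, 32.2 ± 19.7 CPM, differed from GV by 1.61 ± 0.62 (log2, SE; edgeR adjusted p = 0.0816), and the IVM MII level differed from IVO MII by 1.73 ± 0.59 (log2, SE; edgeR adjusted p = 0.148), so neither passed. Without IVO MII replicate 2 the IVO MII to GV difference passed (edgeR adjusted p = 0.0438, with 0.0299 to 0.410 over 16 alternatives). The 2 IVO MII libraries differed from each other 2.53-fold, and with unscaled totals their lower value, 18.0 CPM, fell below the higher GV value of 19.1 CPM.

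The remaining 2 expansion genes were not detected. PTX3, a pentraxin that also binds TSG-6 in the matrix, lies at chr2:59824215-59830894 and had 0 counts in each of the 7 libraries. PTGS2, the inducible enzyme of prostaglandin synthesis, lies at chr1:44615021-44624245 and likewise had 0 counts in each. At the depth of these libraries a level under the limit of 0.0907 to 0.161 CPM is not detectable. TNFAIP6 thus had 1478 to 2778 counts in IVM MII libraries where its matrix partner PTX3 had 0.

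FSHR, the receptor through which follicle-stimulating hormone acts on granulosa cells, lies at chr13:61138923-61334055 on the plus strand, with 10 exon blocks and 5888 bases. Its level was 2.21 and 1.04 CPM in the GV libraries, 6.01 and 3.32 CPM in the IVO MII libraries, and 53.5, 30.3 and 21.9 CPM in the IVM MII libraries. The 3 groups did not overlap, and the lowest IVM MII library was above the highest IVO MII library by a wide margin. In counts, FSHR had 33 to 73 in GV, 86 to 118 in IVO MII and 583 to 998 in IVM MII libraries. From GV to IVM MII oocytes FSHR rose by 4.43 ± 0.67 (log2, SE), 21.6-fold, from 1.63 ± 0.823 to 35.2 ± 16.4 CPM, with an edgeR adjusted p of 0.00224, and the call held in 15 of 15 alternatives with adjusted p up to 0.0230. Between IVO MII (4.66 ± 1.91 CPM) and GV oocytes the difference was 1.51 ± 0.62 (log2, SE; edgeR adjusted p = 0.0973), which did not pass.

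The FSHR difference between the 2 kinds of MII oocyte was 2.92 ± 0.61 (log2, SE), 7.56-fold higher in IVM MII, with an edgeR adjusted p of 0.0553, just short of the threshold. It passed with DESeq2 (adjusted p = 0.000121), with limma voom, with the newer edgeR fit, with no filter on low counts and without IVM MII replicate 3 (edgeR adjusted p = 0.0300). Over all 15 alternatives the adjusted p ran from 0.000121 to 0.193, and the log2 difference from 2.46 to 3.40. The span of FSHR holds exons of 1 row on the opposite strand, LOC102134949, with 0 exon bases shared. That row had 162 and 146 counts in GV, 332 and 300 in IVO MII, and 669, 1306 and 545 in IVM MII libraries, and thus was also highest in the IVM MII group. Whether the counting used strand is not given in the sources used here, and the part of that row's reads in the FSHR count was not tested.

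LHCGR, the receptor of luteinizing hormone, is the neighbour of FSHR on chromosome 13, at chr13:61525800-61588934, 192 kb away. It had 4 and 5 counts in the GV libraries and 0 counts in all 5 MII libraries. The 9 counts in GV oocytes (95% exact Poisson interval 4.12 to 17.1) gave 0.140 ± 0.0263 CPM, which is at the level that 3 counts would give in the MII libraries. With the counts of a group pooled, the 95% limits were 0.0636 to 0.264 CPM in GV oocytes. The upper limits were 0.0810 CPM in IVO MII and 0.0535 CPM in IVM MII oocytes. These limits cover counting error only. The span of LHCGR holds exons of GTF2A1L on the opposite strand, with 0 exon bases shared. GTF2A1L had 9348 and 9947 counts in the GV libraries and 3003 to 7808 in the MII libraries, so it was also highest in GV. The part of its reads in the LHCGR count was not tested. LHCGR did not pass the filter on low counts, and a difference from MII oocytes was not tested. The 2 hormone receptors thus differed in every MII library, with FSHR at 86 counts or more and LHCGR at 0.

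CYP19A1, the aromatase that converts androgens to estrogens, lies at chr7:28190489-28283649 on the minus strand, with 12 exon blocks and 7819 bases. It had 17 and 6 counts in the GV libraries, 193 and 32 counts in the IVO MII libraries, and 0 counts in each of the 3 IVM MII libraries. On the CPM scale this was 0.514 and 0.190 in GV oocytes and 9.84 and 1.23 in IVO MII oocytes. Both IVO MII libraries were above both GV libraries and all IVM MII libraries were below them, but the 2 IVO MII libraries differed 7.97-fold from each other, so their mean of 5.53 ± 6.08 CPM has an SD larger than itself. Against a floor of 3 counts in each IVM MII library, CYP19A1 was at least 41.5-fold lower in IVM MII than in IVO MII oocytes (at least 9.24-fold without IVO MII replicate 1 and 73.7-fold without replicate 2), with an edgeR adjusted p of 0.0514, which did not pass. It passed in the same settings as FSHR, and its adjusted p over 15 alternatives ran from 3.02e-06 (DESeq2) to 0.137, with 0.0448 without IVM MII replicate 3. Against GV it was at least 2.64-fold lower in IVM MII oocytes (1.42-fold without GV replicate 1), with an edgeR adjusted p of 0.0366. Those bounds leave out the counting error of the 23 GV counts. CYP19A1 was tested there because its IVO MII counts carried it past the filter. A fit of the GV and IVM MII libraries alone left it out. That call was lost without any 1 of the GV or IVM MII libraries (edgeR adjusted p of 0.136 and 0.0600 without GV replicate 1 and 2, and 0.0683, 0.0732 and 0.0655 without IVM MII replicate 1, 2 and 3). With limma voom (adjusted p = 0.106) and the newer edgeR fit (0.223) it was lost too, and it held in 6 of 14 alternatives, the fit it could not enter left out, with 0.00431 to 0.223 over all of them. Between IVO MII and GV the difference was 3.95 ± 1.40 (log2, SE; edgeR adjusted p = 0.0763), and it passed with DESeq2, with the newer edgeR fit and without IVO MII replicate 2, the lower of the pair (edgeR adjusted p = 0.0363, with 0.0157 to 0.497 over 16 alternatives). CYP19A1 shares 271 exon bases with LOC102117643 on the other strand, which had 0 counts in every library.

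STAR, which carries cholesterol into mitochondria for steroid synthesis, had 9 and 6 counts in the GV libraries and 0 counts in all 5 MII libraries. It lies at chr8:38952468-38959719. The 15 counts (95% exact Poisson interval 8.40 to 24.7) gave 0.231 ± 0.0583 CPM in GV oocytes. That mean was 1.73-fold above the floor of 3 counts per library in IVM MII oocytes and 1.72-fold above that in IVO MII oocytes. Without GV replicate 1 it was 1.42-fold and 1.41-fold above. With the counts of a group pooled, the 95% limits in GV oocytes were 0.130 to 0.382 CPM, the lower one under both floors (0.134 CPM). Pooled upper limits were 0.0810 CPM in IVO MII and 0.0535 CPM in IVM MII oocytes. STAR did not pass the filter on low counts and was not tested. AMH, anti-Müllerian hormone, a product of granulosa cells of growing follicles, lies at chr19:2119813-2123115 and had 0 counts in every library.

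SERPINE2, or protease nexin-1, inhibits thrombin and plasminogen activators and is made by cumulus and granulosa cells. It lies at chr12:113751046-113816273 on the minus strand, with 9 exon blocks and 2097 bases. It had the highest mean of the 10 genes in each group, at 265 and 80.2 CPM in the GV libraries, 118 and 181 CPM in the IVO MII libraries, and 144, 214 and 393 CPM in the IVM MII libraries. The 3 groups overlapped. TNFAIP6 exceeded it in IVM MII replicate 1 (149 against 144 CPM). Between 1.43% and 6.89% of all gene rows in a library were above it. The group means were 173 ± 131, 150 ± 44.2 and 250 ± 128 CPM, and the spread between the 2 GV libraries, 3.31-fold, exceeded every difference between group means. No SERPINE2 comparison passed: the log2 difference was -0.21 ± 0.62 for IVO MII against GV, 0.53 ± 0.58 for IVM MII against GV and 0.74 ± 0.58 for IVM MII against IVO MII (SE; edgeR adjusted p = 0.828, 0.496 and 0.493).

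**Figure D2:**
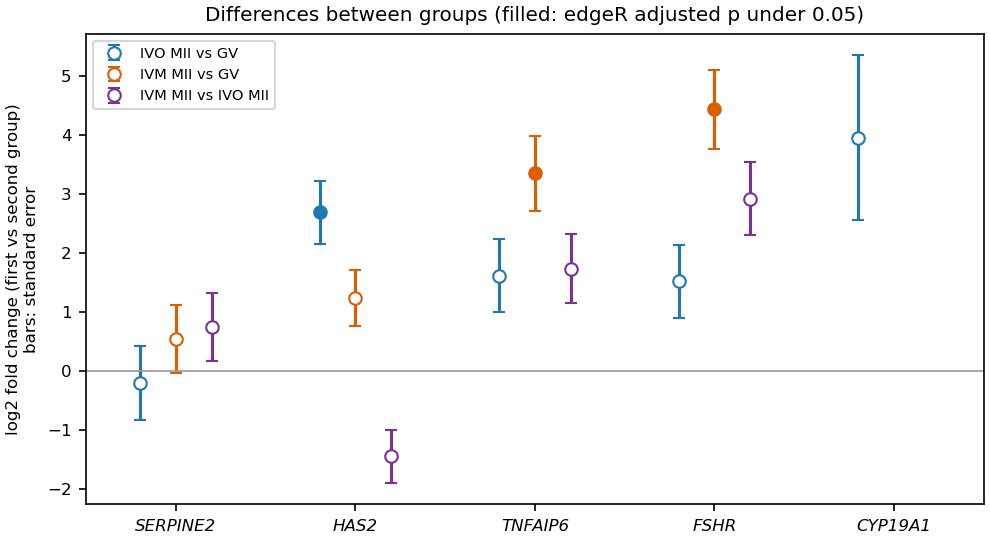
Log2 fold change of the 5 tested genes in the 3 comparisons between groups, with SE as bars. Filled points had an edgeR adjusted p under 0.05: HAS2 for IVO MII against GV (2.68), and TNFAIP6 (3.34) and FSHR (4.43) for IVM MII against GV. CYP19A1 is drawn only for IVO MII against GV, since it had 0 counts in all IVM MII libraries.

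Counted together, 0 of the 5 tested genes passed between IVM MII and IVO MII oocytes, where 1.47% of the 16374 tested genes did so in edgeR (0.892% higher and 0.580% lower in IVM MII). At an unadjusted p under 0.05 they numbered 4 of 5 (HAS2, TNFAIP6, FSHR and CYP19A1), against 21.1% of all tested genes. DESeq2 called 3 of the 10 (HAS2 lower, FSHR higher, CYP19A1 lower in IVM MII), where it called 12.6% of its tested genes. With limma voom 2 were called, where it called 497 of its 16374 tested genes. In the comparisons with GV, DESeq2 called 2 of the 10 for IVO MII (HAS2 and CYP19A1 higher) and 3 for IVM MII (TNFAIP6 and FSHR higher, CYP19A1 lower), where it called 37.7% and 43.6% of its tested genes. From GV to IVO MII oocytes 1 of 5 rose (HAS2), against 28.1% of all tested genes called in either direction and 14.6% called higher. From GV to IVM MII oocytes 2 of 5 rose (TNFAIP6, FSHR) and 1 fell (CYP19A1), against 36.3% called in either direction, 18.5% higher and 17.8% lower. The libraries of the groups did not overlap for 4 of 5 genes in each comparison, against 33.8% of tested genes for IVM MII against IVO MII, 72.8% for IVO MII against GV and 69.1% for IVM MII against GV. The median log2 difference of the 5 was 0.74, 1.61 and 1.23 in these 3 comparisons, beside 0.00, -0.16 and -0.10 over all tested genes. These 5 had to reach a minimum count to be tested, so they do not stand for all 10. CYP19A1 reached it through its IVO MII counts, and a fit of the GV and IVM MII libraries alone left it out. Its part in the counts above, the fall from GV to IVM MII included, rests on that. Both comparisons with GV share the GV libraries.

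The ratio of 2 genes within a library does not depend on library scaling. These ratios were chosen after the values were seen and carry no test. There were 1.11 and 0.302 HAS2 counts per TNFAIP6 count in the GV libraries, 0.855 and 2.11 in the IVO MII libraries, and 0.0907, 0.0842 and 0.351 in the IVM MII libraries. The raw HAS2 count was thus about even with the TNFAIP6 count, or above it, in both IVO MII libraries. It was lower in all 3 IVM MII libraries, although IVM MII replicate 3 overlapped with GV replicate 2. These ratios leave out gene length, 4159 bases for HAS2 and 1442 for TNFAIP6, so they do not compare levels. Per kilobase, TNFAIP6 was above HAS2 in each library, also in IVO MII replicate 1 (32.0 against 9.48) and replicate 2 (12.6 against 9.27). FSHR counts per HAS2 count were 0.278 and 0.250 in GV, 0.152 and 0.0860 in IVO MII, and 3.96, 3.11 and 1.12 in IVM MII libraries. FSHR exceeded HAS2 in counts in the IVM MII libraries alone. Per kilobase it lay below HAS2 in IVM MII replicate 3 (3.72 against 4.69). In both ratios IVM MII replicate 3 was the IVM MII library nearest to the other groups.

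**Figure D3:**
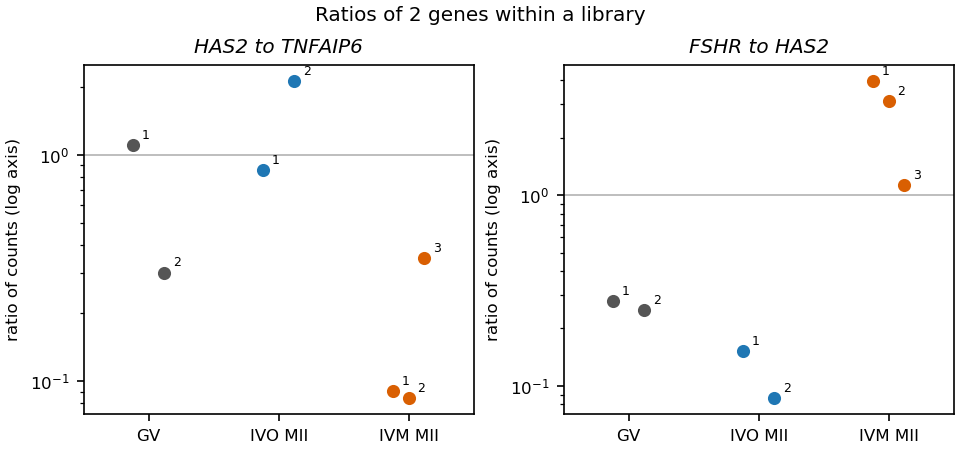
Counts of HAS2 per count of TNFAIP6 (left) and of FSHR per count of HAS2 (right) in each of the 7 libraries, on a log axis, with one point per library and a line at equal counts. Counts are not divided by gene length, so the line does not mark equal levels. The FSHR to HAS2 ratio is 1.12 or more in the 3 IVM MII libraries and at most 0.278 in the 4 others.

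HAS2 is 1 of 3 hyaluronan synthases, so its paralogs HAS1 and HAS3 were set beside it per kilobase of gene length. In GV oocytes the levels were 0.216 ± 0.0449 (HAS1), 1.46 ± 0.643 (HAS2) and 0.782 ± 0.0960 (HAS3) CPM per kilobase. In IVO MII oocytes they were 0.267 ± 0.282, 9.38 ± 0.150 and 2.95 ± 0.588, and in IVM MII oocytes 0.219 ± 0.268, 3.43 ± 1.19 and 4.89 ± 0.614. HAS2 was thus the highest synthase by mean in GV and IVO MII oocytes and HAS3 in IVM MII oocytes, except in IVM MII replicate 3, where HAS2 was at 4.69 and HAS3 at 4.20 CPM per kilobase. HAS3 rose from GV to IVO MII by 1.91 ± 0.42 and from GV to IVM MII by 2.64 ± 0.42 (log2, SE; edgeR adjusted p = 0.0118 and 0.00250). Between the 2 kinds of MII oocyte HAS3 differed by 0.73 ± 0.38 (log2, SE; edgeR adjusted p = 0.305), in the other direction from HAS2, and neither passed.

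**Figure D4:**
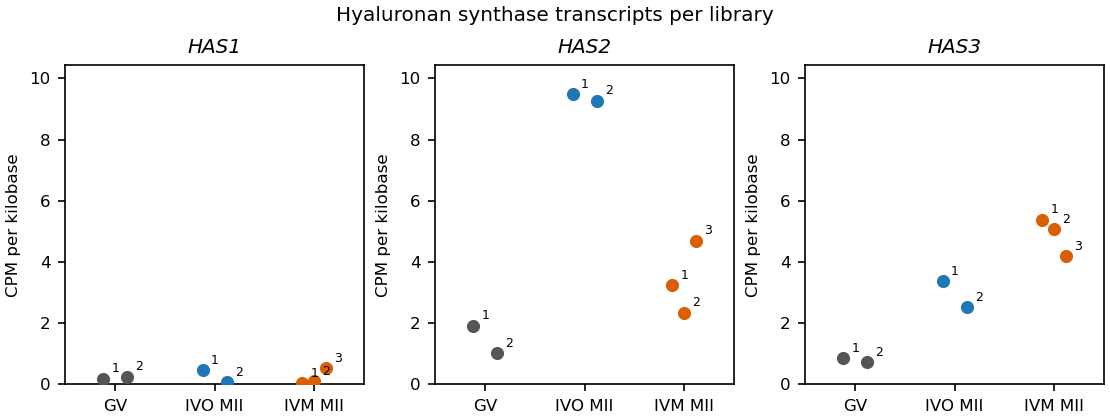
Level of the 3 hyaluronan synthase genes in each library, as TMM-scaled CPM per kilobase of gene length, with one point per library numbered by replicate and the same linear axis in each panel. HAS2 is above HAS3 in both IVO MII libraries, and HAS3 is higher in the IVM MII group than in the other groups, with a mean of 4.89, and lies below HAS2 in IVM MII replicate 3 (4.20 against 4.69).

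Other genes of these pathways were taken from 7 lists with 98 genes, of which 95 were matched, 18 had 0 counts throughout and 46 were tested. Between IVM MII and IVO MII oocytes 0 of 46 passed in edgeR, against 1.47% of all tested genes. At an unadjusted p under 0.05 there were 5, against 21.1%. DESeq2 called 3, where it called 12.6% of its tested genes. With limma voom 1 was called, where it called 497 of its 16374 tested genes. From GV to IVO MII oocytes 7 rose and 2 fell (15.2% and 4.35% of those tested), against 14.6% and 13.5% of all tested genes. From GV to IVM MII oocytes 10 rose and 6 fell (21.7% and 13.0%), against 18.5% and 17.8%, so the shares of genes that rose were near those over all genes. Their median log2 difference was -0.22, 0.48 and 0.32 in these comparisons, beside 0.00, -0.16 and -0.10 over all tested genes.

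Of 24 other genes of cumulus expansion and the luteinizing hormone response, 10 were tested, and 2 rose from GV to IVO MII, while 1 rose and 2 fell from GV to IVM MII. Over all tested genes, 28.1% and 36.3% were called in these comparisons, so the list's calls were no more frequent. RUNX2, a transcription factor, rose from 2.91 ± 0.455 CPM in GV to 12.1 ± 3.38 CPM in IVO MII and 37.8 ± 15.9 CPM in IVM MII oocytes (edgeR adjusted p = 0.0247 and 0.00234). VCAN, the matrix proteoglycan versican, named here after its values were seen, had 10 and 8 counts in GV, 129 and 72 in IVO MII and 17, 76 and 25 in IVM MII libraries. It rose from GV to IVO MII by 4.05 ± 1.07 (log2, SE; edgeR adjusted p = 0.0240). RUNX1 and ADAMTS9, a matrix protease, fell from GV to IVM MII oocytes, by 1.83 ± 0.48 and 0.91 ± 0.28 on the log2 scale (SE; edgeR adjusted p = 0.0188 and 0.0321). CD44, the hyaluronan receptor, and HAPLN1, ITIH1, ITIH3 and EREG had 0 counts in all libraries. ITIH1 and ITIH3 encode heavy chains of the kind that TSG-6 moves onto hyaluronan. ITIH2, a heavy chain gene of the same list, named after its values were seen, was detected in each library. It had 287 and 142 counts in GV, 108 and 106 in IVO MII and 50, 21 and 95 in IVM MII libraries, and passed in no comparison.

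Among 20 other granulosa identity and hormone genes, 10 were tested. CDH2, the adhesion protein N-cadherin, rose from 12.1 ± 1.06 CPM in GV to 43.1 ± 8.82 CPM in IVO MII and 47.1 ± 9.81 CPM in IVM MII oocytes (edgeR adjusted p = 0.0109 and 0.00517). BMPR1B, a receptor of bone morphogenetic proteins, rose from 16.5 ± 6.51 CPM in GV to 55.5 ± 17.8 CPM in IVM MII oocytes (edgeR adjusted p = 0.0172). No gene of this list fell past the threshold. Of 15 steroid synthesis genes 13 were matched and 9 tested. FDX1, the ferredoxin that passes electrons to mitochondrial steroid enzymes, rose from 105 and 127 counts in the GV libraries to 1240 to 1937 counts in the MII libraries, with 62.9 ± 21.4 CPM in IVO MII and 80.2 ± 20.7 CPM in IVM MII oocytes (log2 difference from GV 4.13 ± 0.47 and 4.48 ± 0.47, SE; edgeR adjusted p = 0.00210 and 0.00127). FDXR, the reductase that feeds FDX1, was named after its values were seen. It had 133 and 123 counts in GV and 1, 4 and 1 in IVM MII libraries. It fell from 3.96 ± 0.0941 CPM in GV to 0.0868 ± 0.0717 CPM in IVM MII oocytes (edgeR adjusted p = 0.0201). The IVM MII mean is below the limit of detection, so the size of the fall is uncertain.

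In the list of hyaluronan enzymes, 5 genes were tested. Besides HAS3, HMMR, a hyaluronan-binding protein that also works at the spindle, rose from 62.4 ± 7.83 CPM in GV to 157 ± 21.4 CPM in IVO MII and 139 ± 26.1 CPM in IVM MII oocytes (edgeR adjusted p = 0.0208 and 0.0225). The hyaluronidase-family gene HYAL3 had 228 and 150 counts in GV and 0, 5 and 0 in IVM MII libraries, and it fell past the threshold (edgeR adjusted p = 0.0190). Of the prostaglandin list 3 genes were tested. PTGES3, a prostaglandin synthase that is also a co-chaperone of HSP90, rose from 363 ± 35.5 CPM in GV to 1339 ± 368 CPM in IVO MII and 1537 ± 141 CPM in IVM MII oocytes (edgeR adjusted p = 0.00510 and 0.00238). PTGES2, another prostaglandin synthase, was named after its values were seen. It had 131 and 129 counts in GV, 2 and 1 in IVO MII and 17, 8 and 9 in IVM MII libraries. It fell from 4.02 ± 0.0829 CPM in GV to 0.530 ± 0.331 CPM in IVM MII oocytes (edgeR adjusted p = 0.0327). The fall to IVO MII oocytes also passed (edgeR adjusted p = 0.0101). Its mean there, 0.0702 ± 0.0448 CPM, is below the limit of detection, so the size of that fall is uncertain.

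Of 13 partners of SERPINE2 in the plasminogen and thrombin systems, 7 were tested. F2, which encodes prothrombin, the precursor of the thrombin that SERPINE2 inhibits, fell from 79.0 ± 8.09 CPM in GV to 12.3 ± 3.50 CPM in IVO MII and 7.91 ± 4.24 CPM in IVM MII oocytes (edgeR adjusted p = 0.0135 and 0.00285). SERPINI1, or neuroserpin, rose from 0.989 ± 0.0126 CPM in GV to 7.86 ± 2.81 CPM in IVM MII oocytes (edgeR adjusted p = 0.0167). F2RL1, a protease-activated receptor named after its values were seen, rose between the same groups (log2 difference 3.05 ± 1.04, SE; edgeR adjusted p = 0.0478). THBD had 0 counts throughout. In the list of pentraxins and complement partners of PTX3, 6 of 9 genes had 0 counts throughout, CRP, APCS and the C1q genes C1QA, C1QB and C1QC among them, and 2 were tested.

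The levels of other markers of the surrounding cells were read from a list of 20, of which 19 were matched, the 10 genes above included. Their summed level was 117 to 303 CPM in GV, 264 to 311 CPM in IVO MII and 398 to 535 CPM in IVM MII libraries. Without SERPINE2 the sums were 36.9 to 37.2, 130 to 145 and 142 to 280 CPM. Without the 10 genes the other 9 markers summed to 17.4 to 18.9 CPM in GV, 44.0 to 69.0 CPM in IVO MII and 29.3 to 63.7 CPM in IVM MII libraries, so both MII groups were above GV and overlapped each other. Among these was FST, follistatin, an activin-binding protein, at 15.7 ± 2.96, 29.1 ± 15.2 and 30.3 ± 9.41 CPM in GV, IVO MII and IVM MII oocytes, which passed in no comparison (edgeR adjusted p = 0.212, 0.142 and 0.965 for IVO MII against GV, IVM MII against GV and IVM MII against IVO MII). GREM1, an antagonist of bone morphogenetic proteins made by cumulus cells, had 24 and 87 counts in GV, 332 and 674 in IVO MII, and 622, 88 and 69 in IVM MII libraries. On the CPM scale IVM MII replicate 1 (33.4) was above both IVO MII libraries (mean 21.5 ± 6.41), and the other 2 IVM MII libraries (3.72 and 2.59) were within or near the GV range of 0.726 to 2.75. GREM1 passed in no comparison (edgeR adjusted p = 0.0636, 0.0849 and 0.738 in the same order).

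Several genes used to define granulosa cells were at or near 0 counts, while others of the granulosa list were well detected. FOXL2, the granulosa transcription factor, had 5 counts over all 7 libraries, INHA, the inhibin alpha subunit, had 20, INHBA had 2 and AMHR2 had 5. WT1 and NR5A1 had 0 counts throughout. ESR2, an estrogen receptor, was at 43.0 to 107 CPM over the 7 libraries, FOXO1, a transcription factor, at 51.4 to 129, BMPR1B at 11.9 to 72.9 and CDH2 at 11.3 to 53.1 CPM, with ESR2 and FOXO1 named after their values were seen. Of the 19 markers, 10 (the 3 genes at 0 included) stayed under 1 CPM in every library. In the MII libraries, where FOXL2 had at most 4 counts, TNFAIP6 had 473 to 2778, HAS2 had 230 to 1000 and FSHR had 86 to 998. Of the other markers, FST had 361 to 1080 and GREM1 had 69 to 674 counts in the same libraries. The cells from which these reads came were not tested.

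**Figure D5:**
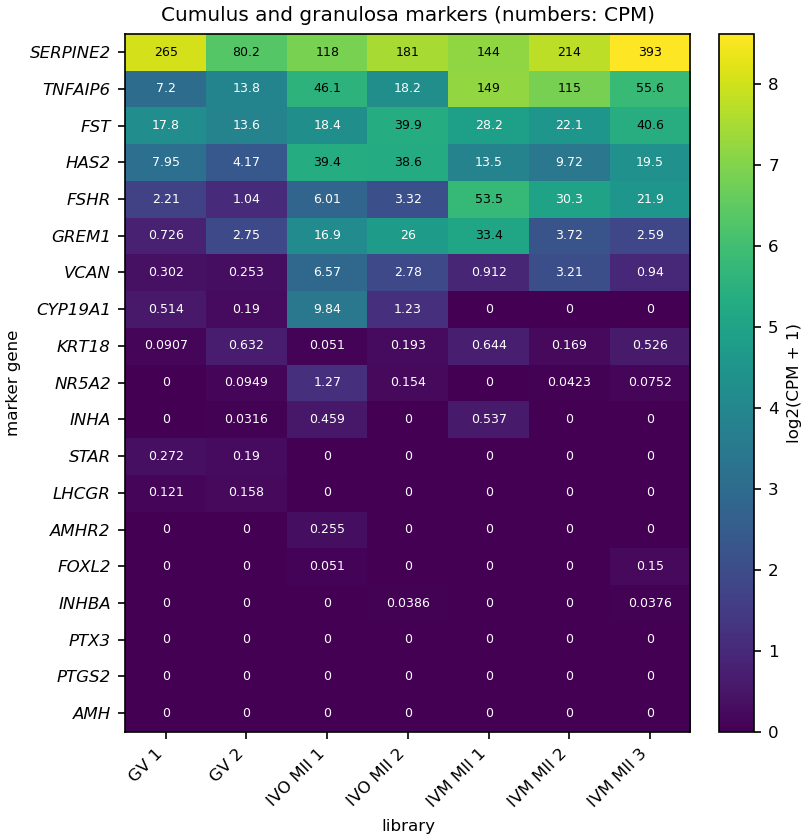
Levels of the 19 matched cumulus and granulosa markers (rows) in the 7 libraries (columns), with CPM printed in each cell and colour giving log2(CPM + 1). SERPINE2 is at 80.2 CPM or more in each library, whereas PTX3, PTGS2 and AMH are at 0 and FOXL2, INHA, INHBA and AMHR2 stay under 1 CPM.

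Markers of other cells were read the same way. Theca, stroma and smooth muscle markers summed to 9.96 to 13.5 CPM in GV, 1.35 to 5.10 CPM in IVO MII and 3.76 to 13.4 CPM in IVM MII libraries, led by ACTA2 and COL1A1, with COL3A1, LUM, PDGFRB and TAGLN at 0 counts. Blood and immune cell markers summed to at most 1.81 CPM, led by CD163 and TYROBP, with CD14 and LYZ at 0. Endothelial markers summed to 1135 to 1264 CPM in GV against 205 to 247 CPM in IVO MII and 158 to 205 CPM in IVM MII libraries, led by VWF and TEK, with CLDN5 at 0 and KDR at 1 count in all. VWF, at 1066 ± 105 CPM in GV, 48.5 ± 4.94 CPM in IVO MII and 37.6 to 46.4 CPM in IVM MII libraries, made most of that difference. Without VWF the sums were 124 to 144, 153 to 202 and 120 to 158 CPM, and TEK was at 54.2 ± 1.53, 119 ± 57.3 and 105 ± 11.0 CPM in GV, IVO MII and IVM MII oocytes. The part of these cell types in the levels of the 10 genes was not tested.

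The 5 tested genes differed in how alike their patterns over libraries were. Over the 7 libraries, Pearson's r of log2(CPM + 1) was 0.94 between TNFAIP6 and FSHR, 0.21 between HAS2 and TNFAIP6, 0.16 between HAS2 and FSHR, and 0.65 between HAS2 and CYP19A1. SERPINE2 had an r of 0.08 to 0.36 in size with the other 4, negative with CYP19A1. These are descriptions over 7 libraries that share the differences between the groups, and they carry no p. Among 10517 genes with a symbol and a mean of at least 1 CPM, those whose pattern was most like HAS2 were FDFT1, SP2 and NUP98 (r = 0.991, 0.989 and 0.988). For TNFAIP6 they were PVRL3, NDC1 and SEL1L (0.996, 0.994 and 0.994), and for FSHR LACC1, CCNL1 and CCDC90B (0.996, 0.995 and 0.991). An r over 0.9 was common, with 287 genes for HAS2, 737 for TNFAIP6 and 489 for FSHR. For CYP19A1, with 40 such genes, the nearest were CCDC152, DDR2 and C18H18orf63 (0.990, 0.978 and 0.974). SERPINE2 stood alone, with 1 gene over 0.9: ZP1, a zona pellucida protein of the oocyte (0.932), followed by TFAP2B (0.897) and TRAT1 (0.868).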

How the data were processed

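Messenger RNA of 7 oocyte libraries was measured by poly(A)-primed full-length cDNA sequencing with paired ends, per the labels' protocols. The authors deposited raw counts per gene in 1 table, with gene positions. The submitters' processing notes name featureCounts 2.0.1 among the tools, with Bowtie2 2.4.5, Trim Galore 0.6.7, SAMtools 1.15.1 and DESeq2. How multiply matching reads were counted, on which build and with which strand setting is not given in the sources used here. Since Bowtie2 aligns without splitting at introns, junction reads can be lost or fall on intronless copies. No sequences were used here, and some genes of the lists are not reported here.

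Broken lines of MACF1, NEB and TTN, 10 in all, were left out, which left 28161 rows. Rows named by locus identifier took symbols from a RefSeq gene table, used for names only. All 7 libraries were fitted together, with 1 coefficient per group, by edgeR 4.0.16 (quasi-likelihood, TMM scaling, filterByExpr, R 4.3.3). Benjamini-Hochberg adjustment ran over all 16374 tested genes, and a gene was called at an adjusted p under 0.05. SE is the log2 fold change over the root of the F statistic. In simulated data for these 16374 genes, 100 genes were changed 16-fold and 100 were changed 4-fold, all with a mean above 5 CPM. The 16-fold changes were recovered in 95%, 85% and 94% of cases, and the 4-fold changes in 35%, 18% and 18%, for IVM MII against IVO MII, IVO MII against GV and IVM MII against GV. Far fewer genes changed there than were called in the comparisons with GV, so these shares do not describe recovery in those comparisons. Alternatives were DESeq2 1.42.0, limma 3.58.1 voom, the newer edgeR fit, no filter, upper quartile and DESeq2 scaling, only the groups compared, a replicate block and leaving out each library.

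The members and lists were chosen with earlier results of these data known. The text names all 10 genes. From each other list it names the called genes of a comparison with at least 5 CPM on average in the higher group, up to 4 per list by log2 fold change. Of the markers it names those at 0 in all libraries and the 2 highest per list. For members with a mean of at least 1 CPM it names the 3 genes of highest correlation. Other genes are named as chosen after their values were seen, or for their role as a defining marker or a partner of a member.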

Additional observations from a re-analysis of the deposited data

How the results depend on the processing

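Of 229 refitted log2 differences of the 5 tested genes, 195 kept direction and side of the threshold, 20 passed newly, 9 no longer passed and 5 reversed. All 5 reversals were of SERPINE2, which passed nowhere: for IVO MII against GV it was 0.00757 with limma voom, 0.0186 with the crossed block and -0.84 to 0.88 when a library was left out (above 0 without GV replicate 1 or IVO MII replicate 1), and for IVM MII against GV it was -0.10 (without GV replicate 2) to 1.63 (without GV replicate 1). For IVM MII against IVO MII the genes called numbered 241, but 2043 with DESeq2, 497 with limma voom, 774 with the newer edgeR fit, 731 with no filter, 54 with only the groups compared and 0 to 1277 when a library was left out (0 without IVM MII replicate 1 or 2, 1277 without replicate 3); upper quartile scaling moved the share of higher calls from 60.6% to 50.4%. The tested members called were 0, but 3 with DESeq2, 2 with limma voom, the newer edgeR fit or no filter, and 0 to 2 when a library was left out. For IVO MII against GV they were 1, but 2 with DESeq2 or the newer edgeR fit and 0 to 3 when a library was left out, with 1484 to 5517 genes called against 4596. For IVM MII against GV 5949 genes were called, and 2110 to 6716 when a library was left out, the lowest without GV replicate 1. The causes were not tested. Scaling moved the median log2 difference of all genes from -0.10 to -0.24 (DESeq2 factors) and -0.21 (upper quartile) for IVM MII against GV, and from 0 to -0.11 (upper quartile) for IVM MII against IVO MII, which changed no direction of HAS2, TNFAIP6, FSHR or CYP19A1. Without scaling, mean CPM was 35.4 for HAS2 in IVO MII, and 0.195 for LHCGR and 0.325 for STAR in GV oocytes.

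The replicate numbers were not treated as pairs (correlations of same-numbered deviations from -0.234 to 0.353). With 2 libraries in a group their deviations mirror each other, so these correlations cannot decide whether the samples were paired. With the replicate number as a block, 1238 genes were called for IVM MII against IVO MII. Among them were 3 of the 5 members (TNFAIP6, FSHR and CYP19A1). For IVO MII against GV the block fit called 4926 genes and 2 members (HAS2 and FSHR). For IVM MII against GV it did not call CYP19A1 (edgeR adjusted p = 0.0502). A crossed pairing of GV with IVO MII libraries, added after seeing the data, called 5548 genes and 2 members.

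Depth limits LHCGR, STAR and the genes at 0, for which a level under 3 counts is not detectable. With 2 or 3 libraries a group, changes of 4-fold were mostly missed in simulated data in which few genes changed. That does not give the share missed in the comparisons with GV, where many genes were called.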
